A study of Mus musculus with 6 samples.

Results

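Integrins are the receptors by which cells hold on to the matrix and to each other, and laminins are the cross-shaped matrix proteins that many of them bind. The integrin and laminin chain genes were read out in livers of mice lacking NEK7 in hepatocytes. Members were taken by gene symbol (Itga, Itgb and Lama, Lamb or Lamc with a chain number or letter), with no use of any measured value. The rule found 37 of the 17975 genes in the table, comprising 26 integrin chains (18 alpha and 8 beta) and 11 laminin chains (5 alpha, 3 beta and 3 gamma).

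RNA was sequenced from whole liver of 3 WT and 3 Hom mice, 1 liver per mouse. Hom mice were homozygous for a floxed NEK7 allele and carried Alb-Cre, in which the albumin promoter drives Cre, which removes NEK7 in hepatocytes, while the sampled tissue also held the other cells of the liver. The study's breeding scheme gives WT mice as carrying either the floxed allele or Alb-Cre alone. Which of these each of the 3 WT mice carried, and the age of the 6 sequenced mice, are not given in the sources used here. No treatment was applied to either group. The question asked of these genes was how the adhesion receptors and the basement membrane chains differed between Hom and WT livers.

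An integrin is a pair of 1 alpha and 1 beta chain. The alpha chain largely sets the ligand (collagen, laminin, proteins with an RGD motif, or counter-receptors on other cells), and the beta chain carries much of the link to the cytoskeleton. A laminin is a trimer of 1 alpha, 1 beta and 1 gamma chain and is the founding component of basement membranes, the thin sheets under epithelium, around vessels and around muscle and nerve. Hepatocytes face the sinusoid across a space with no continuous basement membrane, while bile ducts and larger vessels rest on one. Leukocytes use the beta 2 and beta 7 integrins, and platelets use the pair of alpha IIb and beta 3.

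The libraries held between 19349418 and 19730236 estimated reads on genes, so that depth differed little. Nek7, the targeted gene, had 1127, 1077 and 1036 counts in WT livers 1 to 3 and 310, 439 and 387 in Hom livers 1 to 3. Hom 1 stood apart in having 0 counts of the Y-linked genes Ddx3y and Kdm5d, against at least 630 and 243 in each other liver, although it had 149 counts of the Y-linked Uty (at least 464 elsewhere). WT 1 stood apart in its leukocyte genes. A list of 10 neutrophil markers summed to 420 TPM (relative transcript abundance, a level per length) in WT 1 against 10.9 and 24.7 in WT 2 and 3, and 18 macrophage markers summed to 1046 TPM against 387 and 373. Between the groups, 6 macrophage markers were higher and 2 lower, 2 of 10 tested lymphocyte markers were higher and 0 lower, and 0 of 7 tested neutrophil markers were called in either direction. Of 15 hepatocyte markers 13 were lower in Hom livers and 0 higher, with sums of 143300 to 189100 TPM in WT and 96580 to 105300 in Hom. Of 12 cholangiocyte (bile duct) markers 11 were higher, with sums of 54.8 to 99.8 TPM in WT and 975 to 1490 in Hom. For 15 stellate cell and myofibroblast markers 9 were higher and 1 lower (190 to 281 TPM in WT, 531 to 620 in Hom), and for 13 sinusoidal endothelial markers 0 were higher and 8 lower (170 to 285 TPM and 166 to 198). No marker on these lists was at 0 in every liver. The part of these shifts in the results given here was not tested, and in whole tissue more cells of a type cannot be told apart from more RNA per cell.

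Most chains that changed rose. Of the 37 members 35 had enough counts to be tested, and edgeR's quasi-likelihood test called 18 higher and 4 lower in Hom (Benjamini-Hochberg threshold 0.05). Over all 13805 tested genes 41.7% were called, 21.5% higher and 20.1% lower. For 22 of the 35, every Hom liver lay above every WT liver in CPM (read counts relative to the TMM-scaled library size), and for 4 every Hom liver lay below, against 28.7% and 27.0% of all tested genes. The median log2 fold change of the 35 was 0.89, beside −0.002 for all tested genes. Of the calls, 14 of the 18 rises and all 4 falls were of at least 1 on the log2 scale. Without WT 1 the counts were 23 higher and 2 lower, and without Hom 1 they were 18 higher and 2 lower. The choice of scaling matters for the count of falls: with library size alone, which moved the median of all genes to 0.45, 27 members were higher and 1 (Lama1) was lower. Of all genes called, 51.7% were higher with TMM, 62.8% with upper-quartile factors and 91.1% with library size alone.

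**Figure D1:**
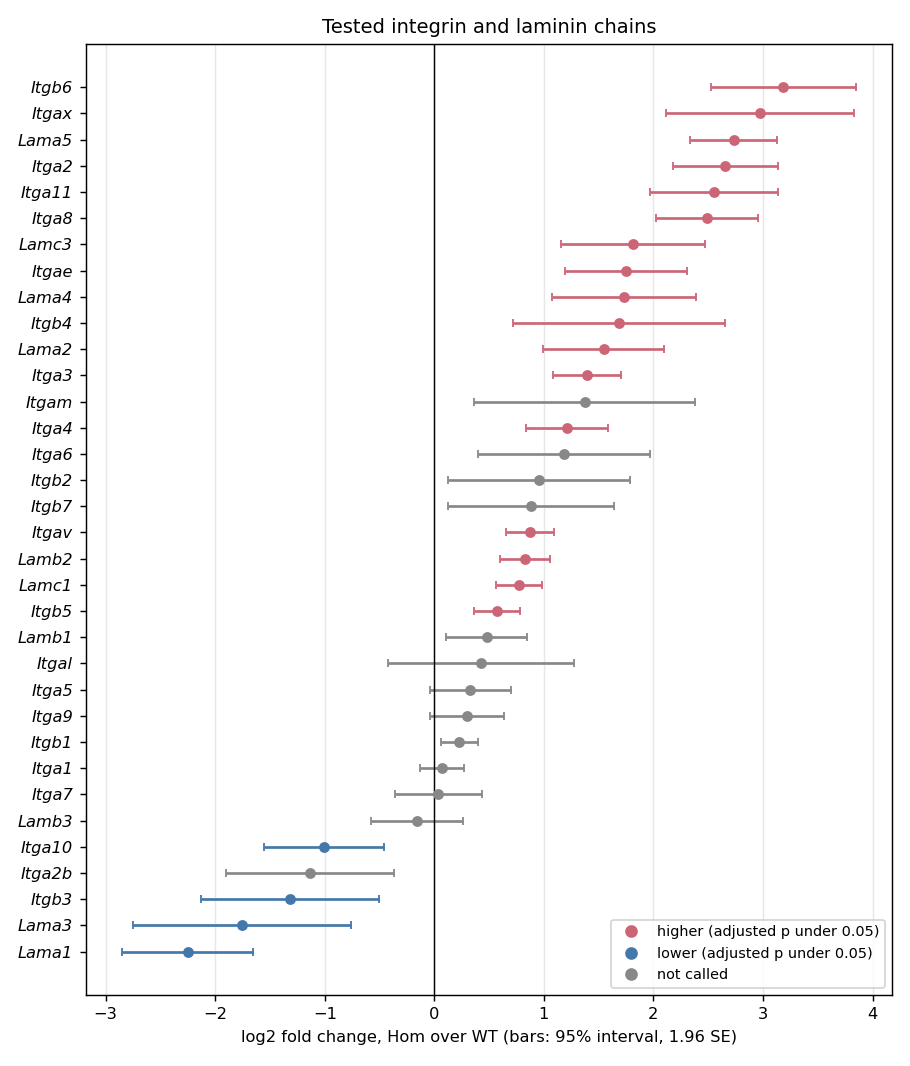
Log2 fold change (Hom over WT) of 34 tested chains, with points coloured by call and bars for the 95% interval around each. The points run from −2.25 for Lama1 to 3.19 for Itgb6, with 17 of those plotted called higher, 4 called lower and 13 not called.

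The laminin alpha chains carry the cell-binding end of the trimer, and of the 5 genes 3 were higher and 2 lower. Lama5, the chain of most adult epithelial and vessel basement membranes, was at 6.93, 3.91 and 5.04 CPM in WT livers 1 to 3 and at 35.5, 31.8 and 38.7 in Hom livers 1 to 3. The groups lay far apart, and the Hom livers were close to one another. Its log2 fold change was 2.73 (standard error, SE, 0.20, adjusted p = 3.67e-04), or 6.64-fold. Lama1, the chain of the embryonic laminin, went the other way, from 9.77, 7.76 and 6.27 CPM in WT to 1.12, 1.57 and 2.29 in Hom. All Hom livers were below all WT livers, by −2.25 on the log2 scale (SE 0.30, adjusted p = 0.00198). Within each liver, where no scaling between libraries enters, the ratio of Lama5 to Lama1 TPM was 0.58, 0.42 and 0.66 in WT and 25.4, 16.9 and 14.0 in Hom.

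Lama2, the chain of muscle and nerve basement membranes, and Lama4, found around vessels and mesenchymal cells, were both higher. Lama2 was at 1.90, 3.34 and 4.18 CPM in WT and at 9.94, 8.04 and 9.44 in Hom (log2 fold change 1.55, SE 0.28, adjusted p = 0.00588). Lama4 was at 3.85, 4.23 and 3.56 CPM in WT and at 6.81, 16.4 and 15.5 in Hom (1.73, SE 0.33, adjusted p = 0.00721). For Lama4, Hom 1 stood closer to the WT livers than to Hom 2 and 3. Lama3 is an alpha chain of skin and other epithelia. It was at 1.955, 6.80 and 8.48 CPM in WT and at 2.01, 1.61 and 1.47 in Hom, so that WT 1 lay among the Hom livers. The gene was called lower (−1.76, SE 0.51, adjusted p = 0.0305). This call was lost without WT 2, WT 3, Hom 1, Hom 2 or Hom 3 in turn (largest adjusted p 0.0983), and without WT 1 the log2 fold change was −2.18 (adjusted p = 0.00172). The call was also lost with library size alone (adjusted p = 0.0531), with a replicate block in the model (0.0830) and with block and length correction together (0.0758).

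Most of the beta and gamma chains described here had smaller differences, with Lamc3 the exception. Lamc1, the gamma chain of most laminins, had 22.0, 18.7 and 17.1 CPM in WT and 32.2, 32.5 and 34.0 in Hom. It had the smallest SE of the called rises, at 0.77 on the log2 scale (SE 0.11, adjusted p = 0.00211). Lamb2, a beta chain of neuromuscular and glomerular basement membranes, was similarly tight, at 7.65, 6.61 and 7.50 CPM in WT and 13.5, 12.8 and 12.4 in Hom (0.83, SE 0.12, adjusted p = 0.00225). Lamb1, its more widespread counterpart, was at 11.1, 12.3 and 7.68 CPM in WT and 13.4, 13.5 and 16.3 in Hom. The groups did not overlap, but the difference of 0.48 (SE 0.19, adjusted p = 0.0812) did not pass. It passed with upper-quartile factors (adjusted p = 0.0492) and library size alone (0.00958) of the 14 alternatives, whose largest adjusted p was 0.230, and was 0.30 without WT 3.

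Lamb3, the beta chain that pairs with Lama3, was at 2.96, 2.63 and 3.81 CPM in WT and at 2.61, 2.89 and 2.93 in Hom. The groups overlapped, with a difference of −0.16 and a 95% interval from −0.58 to 0.26 (adjusted p = 0.587). Lamc3, the least common gamma chain, was at 5.70, 5.77 and 4.85 CPM in WT and at 9.94, 22.8 and 24.7 in Hom (1.81, SE 0.34, adjusted p = 0.00625). As with Lama4, Hom 1 was the lowest Hom liver.

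**Figure D2:**
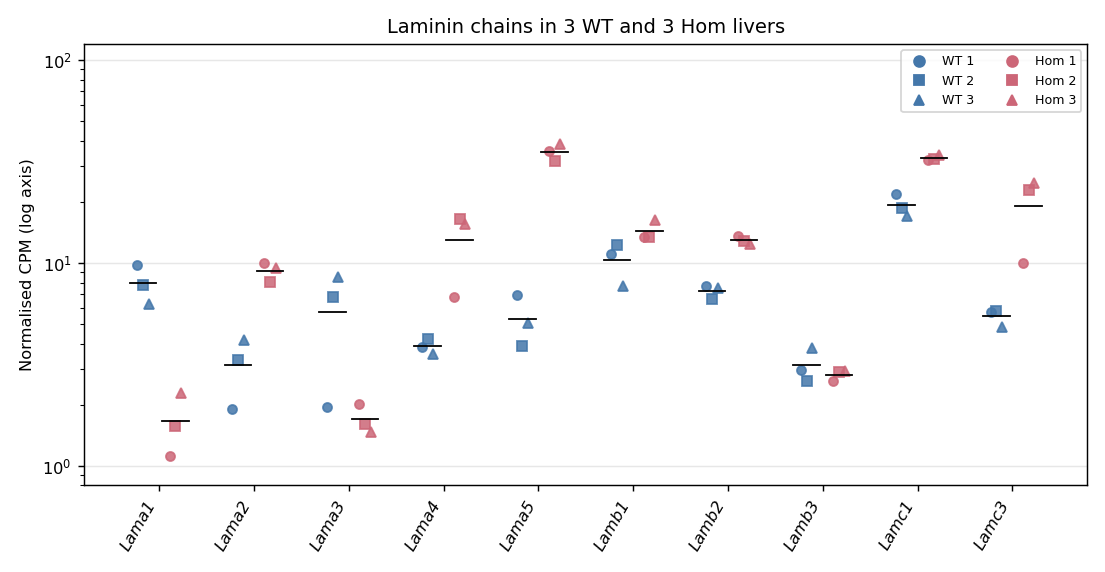
Normalised CPM (log axis) of 10 laminin chains in each WT (blue) and Hom (red) liver, with marker shapes for livers 1 to 3 and bars for group means. Lama5, Lamc1 and Lamb2 show tight, separate groups, Lama1 lies lower in every Hom liver, and WT 1 falls among the Hom livers for Lama3.

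Promoter windows are shown for Lama5, Itgb6 and Itgax, because these had the largest log2 fold changes of the called members. RefSeq gives Itgb6 a second, downstream window that also holds none of the motifs searched. The sequences are RefSeq's on GRCm38.p6, 250 bases before to 50 bases after the start, written in the sense of the gene, and the build named in the submitters' notes for the expression table is mm9. Capitals mark matches, on either strand, to 3 motifs: the AP-1 site TGANTCA, the TEAD site CATTCC and the GC box GGGCGG. Lama5 lies at chr2:180225810-180226109 (minus strand), Itgb6 at chr2:60722554-60722853 (minus strand) and Itgax at chr7:128129300-128129599 (plus strand).
Lama5: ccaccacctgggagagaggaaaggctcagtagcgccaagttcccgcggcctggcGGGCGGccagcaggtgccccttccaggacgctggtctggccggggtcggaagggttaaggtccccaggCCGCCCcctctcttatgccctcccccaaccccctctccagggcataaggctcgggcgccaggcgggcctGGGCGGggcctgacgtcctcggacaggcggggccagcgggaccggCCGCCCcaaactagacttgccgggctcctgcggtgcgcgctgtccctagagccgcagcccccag
Itgb6: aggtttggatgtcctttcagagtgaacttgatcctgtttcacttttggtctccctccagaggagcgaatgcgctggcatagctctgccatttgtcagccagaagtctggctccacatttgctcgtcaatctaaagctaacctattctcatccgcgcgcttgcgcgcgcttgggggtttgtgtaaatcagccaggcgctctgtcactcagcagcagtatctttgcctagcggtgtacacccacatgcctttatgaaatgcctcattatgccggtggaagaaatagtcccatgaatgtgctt
Itgax: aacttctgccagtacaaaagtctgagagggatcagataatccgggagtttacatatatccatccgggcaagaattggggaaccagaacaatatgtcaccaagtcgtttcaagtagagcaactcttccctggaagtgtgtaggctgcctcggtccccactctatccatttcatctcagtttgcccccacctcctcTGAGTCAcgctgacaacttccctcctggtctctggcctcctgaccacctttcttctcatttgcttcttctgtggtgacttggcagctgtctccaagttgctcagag

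The 3 windows differ in make-up. The Lama5 window is 72.7% G and C with 4 GC boxes, the Itgax window is 50% G and C with 1 AP-1 match, and the Itgb6 window is 50.3% G and C with no match to these letters. Windows were matched for 23 members (26 windows in all). Of these, 46.2% held a GC box, 11.5% an AP-1 match and 11.5% a TEAD match, against 35.7%, 7.8% and 14.7% of all 32851 mouse windows of the same length. A match is a description of the letters and not a measured site.

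Among integrin beta chains, the abundant ones had small differences and the rare epithelial ones large ones. Itgb1, the partner of most alpha chains, was the most abundant member per length (58.8 TPM in WT and 106 in Hom), followed by Itgb5 (37.2 and 81.8 TPM). TPM is not scaled with TMM factors, so differences between groups are taken from CPM. In CPM, Itgb1 was at 165, 179 and 163 in WT and at 199, 191 and 204 in Hom. All Hom livers were above all WT livers, by 0.23 on the log2 scale with a 95% interval from 0.063 to 0.40 (adjusted p = 0.0666). Itgb1 passed in 4 of 14 alternatives, DESeq2 among them (adjusted p between 0.00196 and 0.273 over the 14). Itgb5, which pairs with the alpha v chain, was at 82.3, 69.3 and 72.0 CPM in WT and at 99.0, 120 and 114 in Hom (0.57, SE 0.11, adjusted p = 0.00636).

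Itgb6, Itgb8 and Itgb4 were low in WT livers. Itgb6 is an epithelial chain whose pairing with alpha v activates latent TGF-beta. It had 4, 4 and 6 counts in WT livers and 44, 64 and 73 in Hom livers, or 0.22, 0.26 and 0.37 CPM against 2.05, 2.64 and 3.15. No group overlap was seen. With so few WT counts, Itgb6 passed the count filter only through its Hom livers. Its log2 fold change of 3.19 (SE 0.34, adjusted p = 9.13e-04), or 9.09-fold, was the largest of the tested members. Itgb8, the other chain known for activating latent TGF-beta with alpha v, was not tested because of its low counts of 1, 1 and 2 in WT and 8, 15 and 13 in Hom. With no filter on counts it was higher (log2 fold change 2.60, SE 0.61, adjusted p = 0.0158). Itgb4, which joins alpha 6 in the hemidesmosome, was at 0.95, 1.22 and 3.87 CPM in WT and at 5.79, 6.56 and 7.07 in Hom (1.69, SE 0.49, adjusted p = 0.0319). WT 3 was the highest WT liver and the closest to the Hom group. The Itgb4 call was lost without WT 1, WT 2 or any 1 Hom liver (largest adjusted p 0.0996) and was 2.57 without WT 3 (adjusted p = 0.00211).

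Itgb3 was the beta chain that fell. It pairs with alpha IIb on platelets and with alpha v on other cells. Its levels were 10.8, 8.15 and 5.10 CPM in WT and 4.25, 1.61 and 3.84 in Hom, so the groups did not overlap (−1.32, SE 0.41, adjusted p = 0.0401). The call was lost without WT 1, WT 2, Hom 2 or Hom 3 (largest adjusted p 0.104). It was also lost with upper-quartile factors, with library size alone (adjusted p = 0.104) and with a replicate block in the model (0.052). Its platelet partner Itga2b was at 4.86, 2.18 and 2.21 CPM in WT and at 1.77, 1.15 and 1.29 in Hom (−1.14, SE 0.39, adjusted p = 0.0526). Here too every Hom liver lay below every WT liver. Itga2b passed in 5 of 14 alternatives, DESeq2 among them (adjusted p between 0.0304 and 0.181 over the 14), and was −0.65 without WT 1. Of 9 platelet markers only 3 had enough counts to be tested, 1 of them higher and 0 lower, with a median log2 fold change of −0.435. For 1 of the 3 every Hom liver lay above every WT liver, and for 1 every Hom liver lay below. All 9 together summed to 3.75 to 6.78 TPM in WT and 13.2 to 15.5 in Hom, a level not scaled with TMM factors.

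**Figure D3:**
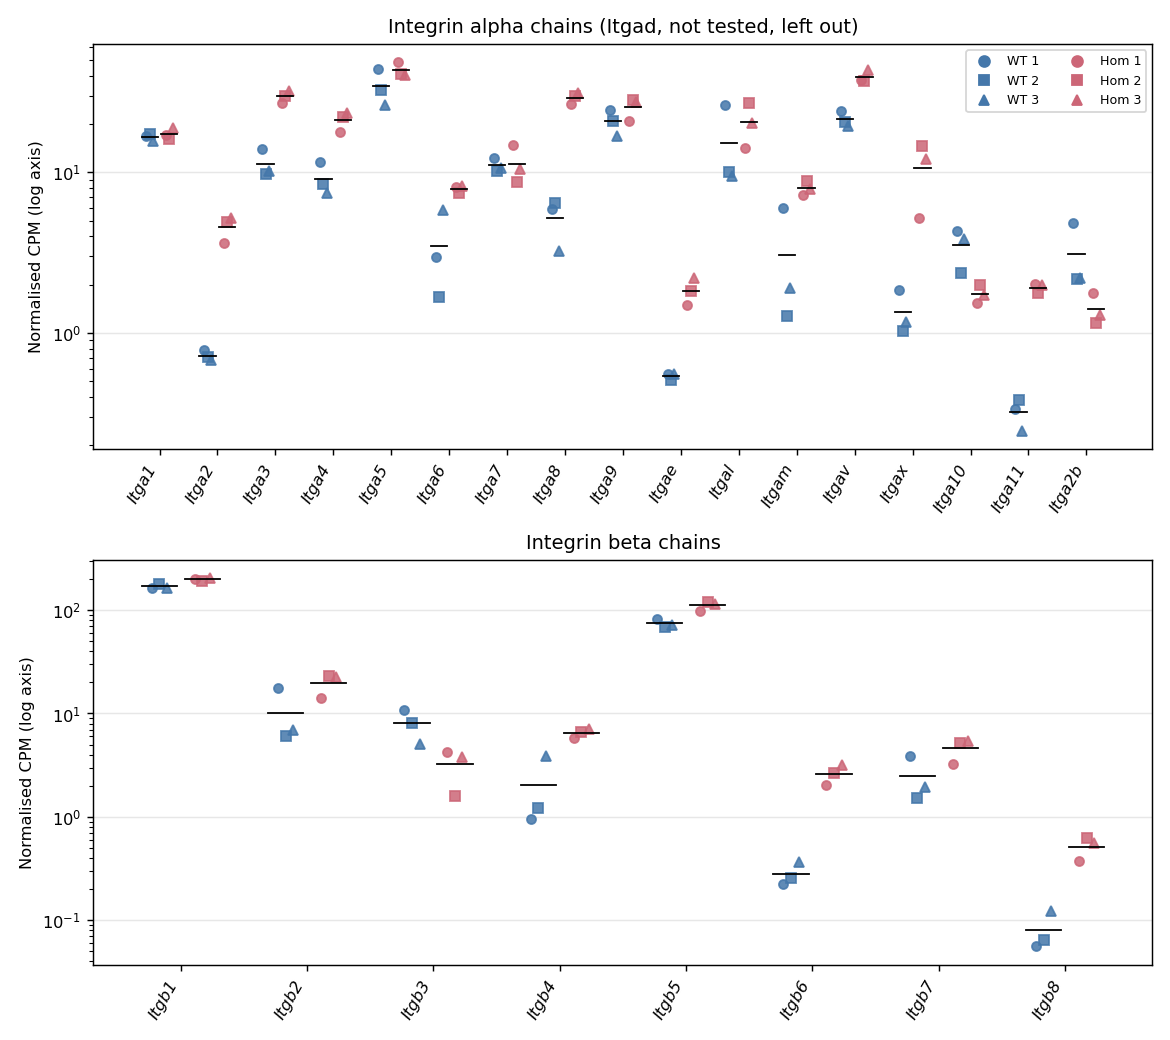
Normalised CPM (log axis) of 17 integrin alpha chains (top) and 8 beta chains (bottom) in each WT (blue) and Hom (red) liver, with bars for group means. Itgb6, Itga2, Itga8 and Itga11 show wide gaps between groups, Itgb1 and Itga1 show nearly level groups, and Itgb3, Itga10 and Itga2b lie lower in Hom livers.

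The 4 collagen-binding alpha chains, all partners of Itgb1, split in 3 ways. Itga2, an epithelial and platelet collagen receptor, was at 0.78, 0.71 and 0.68 CPM in WT and at 3.64, 4.95 and 5.17 in Hom (log2 fold change 2.66, SE 0.25, adjusted p = 6.03e-04). Itga11, the fibroblast collagen receptor, was at 0.34, 0.38 and 0.25 CPM in WT and at 2.01, 1.77 and 1.98 in Hom (2.55, SE 0.30, adjusted p = 0.00124). Both rested on few WT counts (11 to 14 for Itga2 and 4 to 6 for Itga11), and Itga11 passed the count filter only through its Hom livers. Itga1, the neighbour of Itga2 on chromosome 13 and far more abundant, was not called. Its levels were 16.8, 17.3 and 15.6 CPM in WT and 17.1, 16.1 and 19.0 in Hom, a difference of 0.070 with a 95% interval from −0.13 to 0.27 (adjusted p = 0.611). The ratio of Itga2 to Itga1 TPM was between 0.033 and 0.039 in WT livers and between 0.18 and 0.26 in Hom livers.

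Itga10, the collagen receptor known from cartilage, fell, from 4.30, 2.37 and 3.87 CPM in WT to 1.54, 1.98 and 1.72 in Hom (−1.01, SE 0.28, adjusted p = 0.0270). The groups did not overlap. The call was lost without WT 1, WT 3 or any 1 Hom liver (largest adjusted p 0.0864). With library size alone the log2 fold change was −0.56 (adjusted p = 0.186). The call was also lost with a replicate block in the model (adjusted p = 0.0768) and with block and length correction together (0.0681). In GENCODE M21, 33.5% of the exon bases of Itga10 are shared with the overlapping gene Gm42957 on the same strand.

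Of the laminin-binding alpha chains, Itga3 rose with narrow spread. Itga3 binds laminins with the alpha 3 and alpha 5 chains. It was at 14.0, 9.75 and 10.1 CPM in WT and at 27.1, 29.9 and 32.2 in Hom (1.39, SE 0.16, adjusted p = 0.00113). Itga6, the partner of Itgb4 and Itgb1 on epithelial cells, was at 2.96, 1.67 and 5.84 CPM in WT and at 8.07, 7.42 and 8.28 in Hom. All Hom livers lay above all WT livers, and the difference of 1.18 (SE 0.40, adjusted p = 0.0506) just missed the threshold. WT 3 was the highest WT liver for Itga6 as it was for Itgb4, and without WT 3 Itga6 was higher by 1.76 (adjusted p = 0.00697). Itga6 passed in 6 of 14 alternatives, with adjusted p from 0.00697 to 0.126. Itga7, the laminin receptor of muscle, was at 12.3, 10.3 and 10.6 CPM in WT and 14.8, 8.78 and 10.5 in Hom, with overlapping groups and a difference of 0.037 (95% interval from −0.36 to 0.44, adjusted p = 0.897).

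The RGD-binding alpha chains recognise fibronectin, vitronectin and related proteins. Itga8, a receptor of mesenchymal and smooth muscle cells, had the largest rise of this group. It was at 5.92, 6.41 and 3.26 CPM in WT and at 26.7, 29.7 and 31.1 in Hom (2.49, SE 0.24, adjusted p = 6.46e-04). Per length it ranked 19 of the 37 members in WT (1.34 TPM) and 7 in Hom (11.6 TPM). Itgav, the shared partner of Itgb3, Itgb5, Itgb6 and Itgb8, was at 24.1, 20.7 and 19.4 CPM in WT and at 37.4, 36.9 and 43.3 in Hom (0.87, SE 0.11, adjusted p = 0.00165). Itga5, the classical fibronectin receptor and the most abundant alpha chain, was at 44.3, 32.7 and 26.4 CPM in WT and at 48.4, 40.7 and 40.7 in Hom. These groups overlapped, with a difference of 0.33 (95% interval from −0.037 to 0.70, adjusted p = 0.196), although without WT 1 it was 0.55 (adjusted p = 0.0236, with values from 0.0211 to 0.455 over the alternatives).

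Itga4 and Itga9 form their own subfamily. Itga4, the receptor for VCAM-1 on leukocytes, was at 11.6, 8.47 and 7.44 CPM in WT and at 17.9, 22.3 and 23.6 in Hom (1.21, SE 0.19, adjusted p = 0.00343). Part of its exons, 8.0% of their bases in GENCODE M21, lie opposite exons of Cerkl, and strand-specific counting is not stated in the sources used here. Itga9, a receptor for osteopontin and tenascin, was at 24.5, 20.9 and 17.0 CPM in WT and at 20.8, 28.4 and 27.5 in Hom, with overlap (0.30, 95% interval from −0.041 to 0.63, adjusted p = 0.204).

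Of the 8 leukocyte chains 7 were tested and 3 (Itga4, Itgae and Itgax) were higher, with 0 lower, against 21.5% higher and 20.1% lower of all tested genes. WT 1 was the highest WT liver for each of the 7. Itgax, the alpha chain of CD11c on dendritic cells and some macrophages, was at 1.84, 1.03 and 1.17 CPM in WT and at 5.23, 14.6 and 12.2 in Hom. It rose by 2.97 on the log2 scale (SE 0.44, adjusted p = 0.00272), and Hom 1 was the lowest of the Hom livers. Itgae, the CD103 chain of epithelium-bound T cells and some dendritic cells, was at 0.56, 0.51 and 0.55 CPM in WT and at 1.49, 1.81 and 2.2 in Hom (1.75, SE 0.29, adjusted p = 0.00394). Its WT counts were 10, 8 and 9, so that, like Itgb6, it passed the count filter only through its Hom livers. Itgam, Itgal, Itgb2 and Itgb7, the other tested chains, did not pass. Itgam, or CD11b, was at 5.98, 1.28 and 1.91 CPM in WT and at 7.23, 8.91 and 7.85 in Hom (1.38, SE 0.51, adjusted p = 0.0687). Every Hom liver lay above every WT liver, but WT 1 lay near the Hom group. In GENCODE M21, 68.7% of Itgam exon bases are shared with Gm49368 on the same strand.

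Itgal, the alpha chain of LFA-1, was at 26.5, 10.1 and 9.46 CPM in WT and at 14.3, 27.3 and 20.4 in Hom (0.43, SE 0.43, adjusted p = 0.456). Its WT 1 level was higher than those of Hom 1 and Hom 3. Itgb2, the common beta chain of these receptors, was at 17.7, 6.03 and 6.88 CPM in WT and at 14.0, 23.3 and 22.3 in Hom (0.96, SE 0.42, adjusted p = 0.11). Itgb7, the partner of alpha 4 and alpha E, was at 3.91, 1.54 and 1.97 CPM in WT and 3.22, 5.15 and 5.39 in Hom (0.89, SE 0.39, adjusted p = 0.106). WT 1 was thus the highest WT liver for all of these chains, as it was for the macrophage, lymphocyte and neutrophil marker sums.

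Without WT 1, Itgal (log2 fold change 1.08, adjusted p = 0.0257), Itgam (2.32, adjusted p = 0.00174), Itgb2 (1.62, adjusted p = 0.00546) and Itgb7 (1.38, adjusted p = 0.0176) each passed. Over all alternatives their adjusted p reached at most 0.805, 0.165, 0.270 and 0.259, and DESeq2 called Itgam (0.0184) and Itgb2 (0.0451). Itgad, the alpha chain of some tissue macrophages, had at most 3 counts in any liver and was not tested. The part of leukocyte numbers in these values was not tested. Macrophage markers summed to 1160, 1834 and 1441 TPM in Hom livers 1 to 3 and lymphocyte markers to 18.8, 37.1 and 32.0, against 16.1, 6.13 and 7.33 in WT livers 1 to 3. From high to low, the Hom livers ran Hom 2, Hom 3, Hom 1 for both sums and for 4 of the 7 tested leukocyte chains in CPM (Itgax, Itgal, Itgam and Itgb2), while the other 3 (Itga4, Itgae and Itgb7) ran Hom 3, Hom 2, Hom 1. Within a liver, the ratio of Itgax to Itgal TPM was 0.090, 0.13 and 0.16 in WT and 0.47, 0.71 and 0.78 in Hom, and the groups did not overlap.

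**Figure D4:**
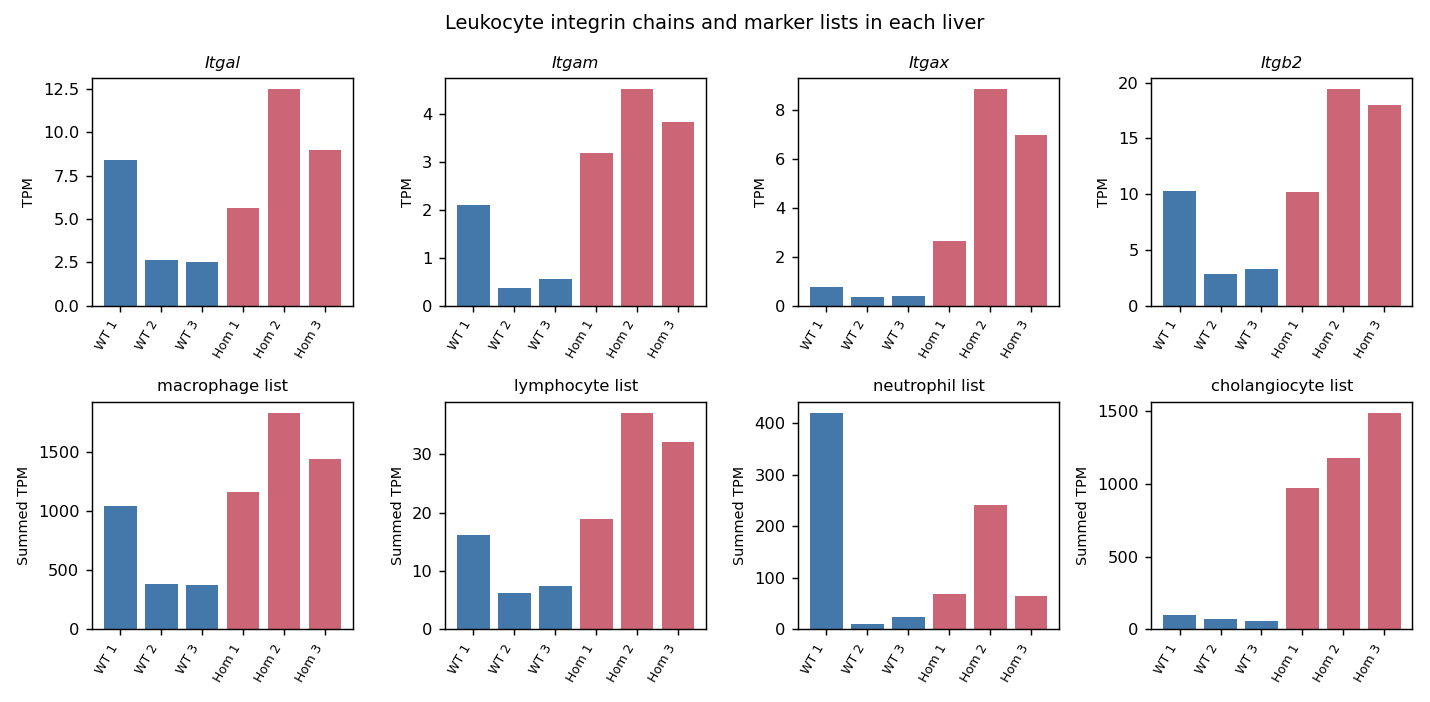
TPM of 4 leukocyte integrin chains (top) and summed TPM of 4 marker lists (bottom) in each liver, WT in blue and Hom in red, all axes from 0. WT 1 stands above WT 2 and 3 for Itgal, Itgam and Itgb2 and for the macrophage, lymphocyte and neutrophil sums, while the cholangiocyte sum is 975 to 1490 TPM in Hom and 54.8 to 99.8 in WT.

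The make-up of each chain class was compared within livers, as the share of a chain in the summed TPM of its class, which no scaling between libraries can change. Of the laminin alpha TPM, Lama5 took 21.6%, 10.1% and 12.3% in WT livers and 54.4%, 41.4% and 45.6% in Hom livers, a mean of 14.6% ± 6.08 against 47.1% ± 6.66 (SD, n = 3 mice each; exact permutation p = 0.1). Lama1 went from 26.6% ± 9.47 to 2.61% ± 0.57 and Lama3 from 28.5% ± 15.0 to 4.07% ± 1.08 (SD, n = 3 mice; exact permutation p = 0.1 for each). The leading alpha chain was Lama1 in WT 1, Lama3 in WT 2 and WT 3, and Lama5 in each Hom liver.

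Shares were compared in the integrin classes and the laminin beta class in the same way. Itgb1 and Itgb5 together made up most of the beta chains in every liver, with Itgb1 at 56.3% ± 5.17 in WT and 50.1% ± 3.59 in Hom (SD, n = 3 mice; exact permutation p = 0.2). Lamb1 held 46.5% ± 8.57 and 45.8% ± 3.23 of the laminin beta chains (exact permutation p = 1, n = 3 mice). Beside it, Lamb2 held 33.1% ± 3.53 and 41.5% ± 3.20, and Lamb3 held 20.4% ± 5.21 and 12.7% ± 0.76 (exact permutation p = 0.1 for each, n = 3 mice). Of the integrin alpha chains, Itga5 led in every liver, with 25.8% ± 1.85 in WT and 19.6% ± 3.18 in Hom, and Itga8 went from 3.05% ± 0.90 to 10.2% ± 0.21 (exact permutation p = 0.1 for each, n = 3 mice). Of the 37 shares compared, 24 gave p = 0.1, the smallest that 3 livers against 3 allow in a two-sided exact test. After Benjamini-Hochberg adjustment over the 37 the smallest value was 0.154, so no share can pass the threshold in this design.

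**Figure D5:**
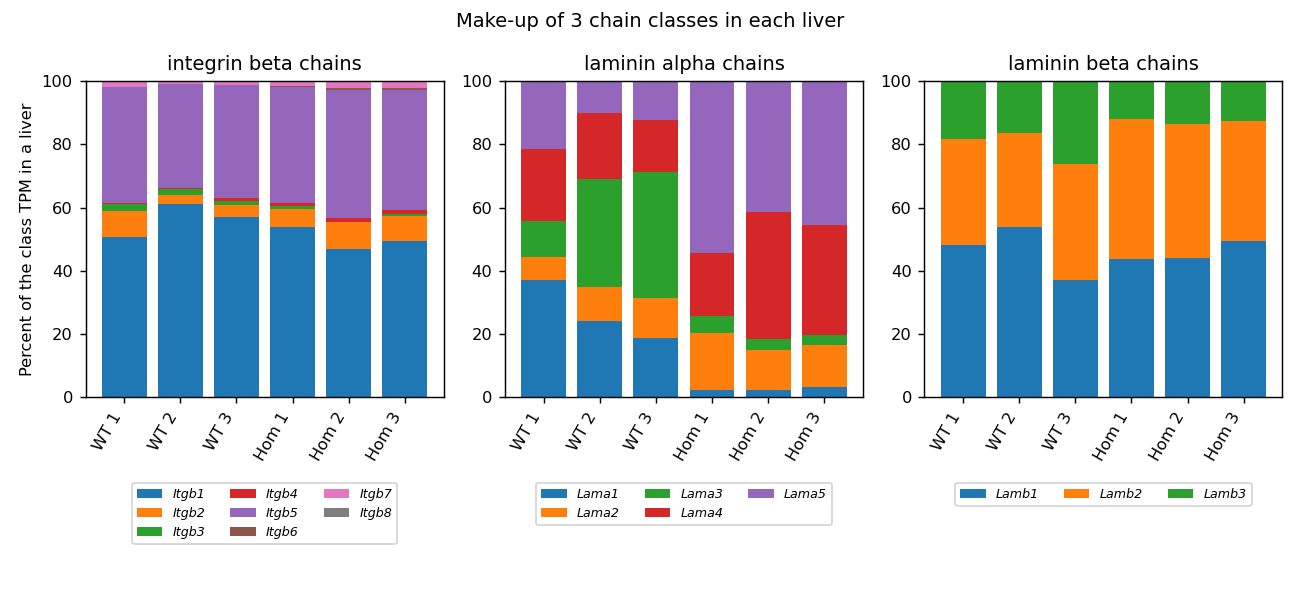
Stacked bars of the percent of the class TPM held by each chain, for integrin beta, laminin alpha and laminin beta chains in each of 6 livers. Lama5 holds 10.1% to 21.6% of laminin alpha TPM in WT and 41.4% to 54.4% in Hom, while Itgb1 and Itgb5 dominate the integrin beta chains in every liver.

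Most partners of laminin in the basement membrane were higher in Hom livers. Of 23 listed partners 22 were tested, with 17 higher and 2 lower, and a median log2 fold change of 1.34. The 3 rises with the smallest adjusted p were Nid1, which links laminin to collagen IV (17.6 ± 2.77 CPM in WT and 107 ± 20.9 in Hom, SD, n = 3 mice, adjusted p = 2.94e-04), Col4a1 (43.7 ± 2.18 and 128 ± 16.7, adjusted p = 3.16e-04) and Col4a2 (31.1 ± 1.01 and 72.8 ± 7.99, adjusted p = 4.09e-04). The last 2 encode the chains of the common collagen IV network. The 2 that fell were Col18a1 (1244 ± 153 CPM in WT and 801 ± 64.0 in Hom, adjusted p = 0.0135), the source of endostatin, and Rpsa (598 ± 50.3 and 452 ± 9.66, adjusted p = 0.0266), a ribosomal protein also described as a laminin receptor.

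The list of integrin ligands other than laminin also holds genes of TGF-beta and its latent complex, not all of them direct ligands. It gave 15 higher and 0 lower of 27 tested, with a median log2 fold change of 1.15. Mfge8, a bridging protein with an RGD motif, went from 17.1 ± 3.31 to 230 ± 10.5 CPM (SD, n = 3 mice, log2 fold change 3.75, adjusted p = 9.42e-05). Cdh1, or E-cadherin, the ligand of the alpha E chain, went from 50.6 ± 1.37 to 148 ± 10.4 CPM (1.54, adjusted p = 1.59e-04). Tgfb2, one of the TGF-beta genes on the list, went from 1.29 ± 0.23 to 12.4 ± 1.63 CPM (3.27, adjusted p = 1.94e-04).

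The integrin adhesion machinery, a list of cytoplasmic proteins and some membrane proteins, had the smallest median of the 3 pathway lists. Of 30 tested genes 10 were higher and 3 lower, with a median log2 fold change of 0.16. The kindlins, which switch integrins on from inside the cell, went in opposite directions. Fermt1, the epithelial kindlin, rose from 1.39 ± 0.19 to 8.70 ± 0.62 CPM (2.64, adjusted p = 2.65e-04), and Fermt2, the kindlin of most adherent cells, fell from 143 ± 17.8 to 76.6 ± 4.46 CPM (−0.90, adjusted p = 0.00144; SD, n = 3 mice for both). Tns3, a tensin that binds beta chain tails, rose from 34.6 ± 2.18 to 70.3 ± 3.53 CPM (1.02, adjusted p = 4.25e-04), and the kinase gene Src rose from 3.26 ± 0.58 to 12.1 ± 2.86 (1.89, adjusted p = 0.00144). The other falls were Tln2, a talin (14.8 ± 2.71 to 6.82 ± 1.41 CPM, −1.11, adjusted p = 0.00545), and the tetraspanin Cd81 (211 ± 0.91 to 159 ± 9.58 CPM, −0.41, adjusted p = 0.00903). These shares stand beside 21.5% higher and 20.1% lower among all tested genes.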

How the data were processed

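Whole-liver RNA of 3 WT and 3 Hom mice was sequenced on the DNBSEQ platform. The submitters' processing notes name HISAT2 2.0.4, Bowtie2 2.2.5, RSEM 1.2.12 and the build mm9, and the annotation and strandedness are not given in the sources used here. The authors deposited an estimated count (not scaled between samples), an FPKM and a TPM value per gene and liver. The deposited group mean columns carry crossed names in all 17975 genes and were not used. Estimated counts were rounded and tested with edgeR 4.0.16 in R 4.3.3 (filterByExpr, TMM, glmQLFit and glmQLFTest, Hom against WT, no minimum fold), with Benjamini-Hochberg adjustment over 13805 genes and a threshold of 0.05, as in the paper. Standard errors come from the fold change and the F statistic. Deposited FPKM gave gene lengths, and deposited TPM gave levels and shares. Of the members, 1 counted among them is not reported here by itself, and in each pathway list the text names the 3 genes of smallest adjusted p in each direction. The rule for members used gene symbols alone, while this gene family and the lists were chosen with earlier results of these data known. The procedure was run on simulated data with few genes changed, up and down alike. In these livers 41.7% of tested genes were called, so that run does not bear on the choice of scaling. Alternatives were DESeq2 1.42.0, other scaling, other filters, a replicate block, a length correction, a minimum fold and leaving out each liver. Counts limit Itgad, Itgb8, Itgb6, Itga11 and Itgae most.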

Additional observations from a re-analysis of the deposited data

How the results depend on the processing

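Of the 18 chains called higher, 17 kept their call in each alternative without a minimum fold change that tested them, the exception being Itgb4, and of the 4 called lower Lama1 did. Among the 17, Itga11, Itgae and Itgb6 were not tested under the filter of at least 10 counts in every liver. At a minimum log2 fold change of 1, Itgav, Itgb5, Lamb2 and Lamc1 were not counted, leaving 14. Chains called lower numbered 1 with library size alone, 2 with the replicate block and 1 to 3 with 1 liver left out. With the block these were Lama1 and Itga2b. Itga2b, not called in the main fit, was also counted with DESeq2, with length correction and without WT 3. Chains called higher stayed between 14 and 27. Among all genes, library size alone gave 6574 higher and 642 lower and a minimum log2 fold change of 1 gave 1825 and 575, while leaving out livers gave 1767 to 2750 lower. Pathway list genes called lower numbered 2 with library size alone, 1 with the minimum fold change, 3 with length correction and replicate block together (added after seeing the data) and 3 to 5 with 1 liver left out. The log2 fold change changed sign for Itga1 with length correction (−0.030, and −0.032 with the block), for Itga7 with length correction (−0.042, and −0.067 with the block) and from −0.20 to 0.19 across left-out livers, and for Lamb3 with library size alone (0.30) and from −0.27 to 0.001 across left-out livers. The causes were not tested. Same-numbered livers are different mice and did not deviate together (correlations of deviations −0.11, −0.056 and −0.049). Laminin chains are long (median 5989 bases against 2864 for all tested genes), and length correction left 18 chains higher and 5 lower. Few counts limit the chains at under 1 CPM in WT livers.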
